A study of Mus musculus with 6 samples.

Results

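The genes of 7 adrenergic receptors, the receptors for noradrenaline and adrenaline, were followed in the medial prefrontal cortex of mice. They are Adra1a, Adra1b and Adra1d of the alpha1 class, Adra2a, Adra2b and Adra2c of the alpha2 class, and Adrb1 of the beta class. The 7 were taken by gene symbol from 19943 genes in the deposited tables, and each had reads in all 6 libraries. Further receptors for these ligands were not analysed here. The study compared 3 control libraries with 3 libraries of mice kept in social isolation for 3 weeks after weaning, to ask what early isolation does to gene expression in this region. All mice were C57BL/6, and nothing in the labels describes a further genotype, drug or surgery in either group. The labels give an age of 6 weeks and the text on the series 7 weeks. They give neither sex nor the housing of the controls, and do not say whether each library came from its own animal, so every p-value reflects variation among libraries that could be technical.

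Noradrenaline reaches the cortex through long axons of brain stem neurons, so its receptors are made in the cortex while most of the machinery for making it is not. Receptors of the alpha1 class couple to Gq proteins, which activate phospholipase C and protein kinase C. Receptors of the alpha2 class couple to Gi proteins, which lower cyclic AMP, and the beta class couples to Gs proteins, which raise it. In the prefrontal cortex the receptor encoded by Adra2a is known for its part in working memory, and alpha1 and beta1 receptors are engaged at the higher noradrenaline levels of stress.

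Depth was even, from 18226448 to 18606573 expected counts per library. An expected count is the authors' estimate of the reads of a gene and need not be whole. The libraries stood apart in markers of the projection neurons that make up most of the striatum, a region beside it. The summed level of 12 such markers was 3719 CPM in control 2 (CPM are counts brought to 1 depth by TMM scaling) and 2691 CPM in isolated 3. It was 1208 CPM in control 1 and 402 CPM in control 3, and isolated 1 and 2 had 618 and 603 CPM. None of the 12 was at 0 in any library. Drd2, which encodes a dopamine receptor, was at 0.605 CPM in control 3 but at 68.2 CPM in control 2, and Ppp1r1b, a dopamine-regulated phosphatase inhibitor, was at 108 and 834 CPM in these 2 libraries. Markers of excitatory cortical neurons were present in all libraries and were lowest in isolated 3 (5702 CPM summed over 5 genes) and control 2 (5850 CPM), against 6718 to 7373 CPM in the other libraries. Summed oligodendrocyte markers varied 2.41-fold, from 2453 CPM in control 3 to 5918 CPM in isolated 3. Sums for astrocytes (3789 to 4060 CPM in control, 3513 to 3692 CPM in isolated libraries) and endothelium (158 to 168 and 144 to 155 CPM) were lower in every isolated library. For all other marker lists the sums of the groups overlapped. Slc1a2, at 2676 to 3203 CPM over the 6 libraries, made up most of the astrocyte sum. Among astrocyte markers the groups were apart for Slc1a2 and Aqp4 but overlapped for Gja1, Slc1a3, Aldh1l1 and Gfap. Among endothelial markers they were apart for Flt1 but overlapped for Cldn5, Pecam1 and Slco1a4. Taken gene by gene, the groups were apart for 8.85% of all tested genes. Whether either cell type changed was not tested. Genes that mark noradrenergic cell bodies were low. Th, an enzyme that all catecholamine neurons use, lay between 1.52 and 3.25 CPM. Dbh, the enzyme that makes noradrenaline, lay between 0.0533 and 0.38 CPM, and the noradrenaline transporter Slc6a2 between 0.216 and 0.495 CPM.

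Levels of different genes can be set side by side only per length, which FPKM provides (read estimates scaled for gene length and library size, as deposited). Adra1d was the most abundant member with a mean of 19.3 FPKM over the 6 libraries, followed by Adrb1 (11.8 FPKM), Adra1b (11.6 FPKM), Adra2c (6.16 FPKM), Adra2a (4.62 FPKM), Adra1a (3.13 FPKM) and Adra2b (0.135 FPKM). Adrb1 and Adra1b were not separable, since their FPKM were in this order in only 2 of 6 libraries. Adra1d exceeded Adrb1 in 5 of 6 libraries, and Adra1b exceeded Adra2c in 5 of 6, with control 2 as the exception each time. Adra2c was above Adra2a in 6 of 6 libraries although their ranges overlapped. The ranges of Adra2a and Adra1a did not overlap, and Adra1a stood 23.2 times above Adra2b. Adra2b rested on 4.73 to 19.1 expected counts per library, so its level is poorly fixed. The other 6 had between 170 and 1104 expected counts per library.

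**Figure D1:**
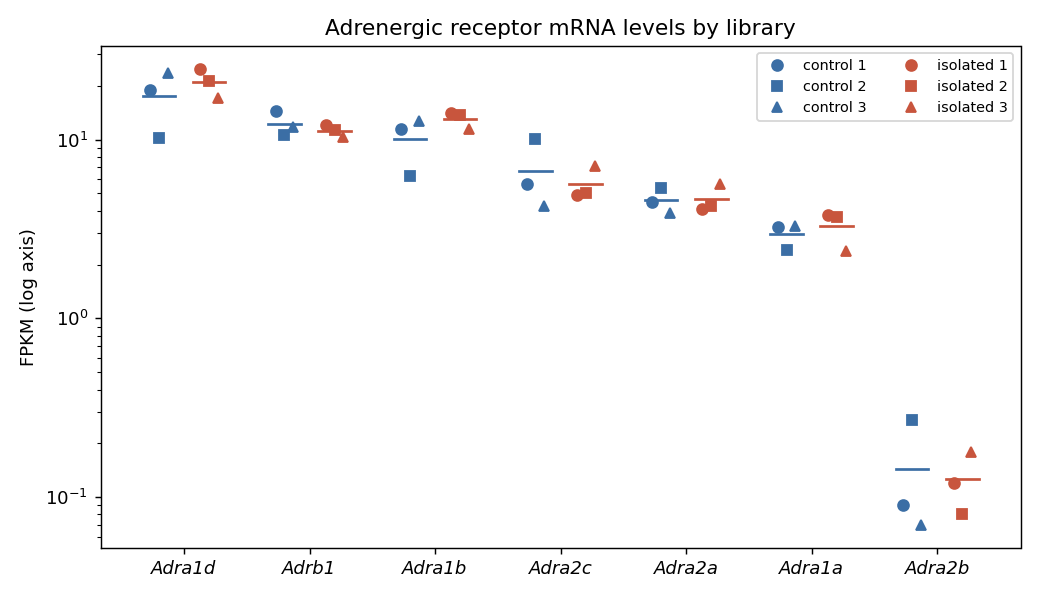
FPKM of the 7 receptor genes in each library on a log axis, ordered by mean level, with control libraries in blue, isolated libraries in red and a line at each group mean. Adra1d is highest on average at 19.3 FPKM and Adra2b lowest at 0.135 FPKM, and within every gene the points of the groups overlap.

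Of the alpha1 class, Adra1d lies on chromosome 2 from 131545357 to 131562497 on the minus strand (GRCm38, Entrez gene 11550). It was measured at 45.4, 24.1 and 57.1 CPM in control 1, 2 and 3, and at 59.9, 51.2 and 40.2 CPM in isolated 1, 2 and 3. Control 2 was far below the other 5 libraries, isolated 3 was the next lowest, and the groups overlapped. The means were 42.2 ± 16.8 CPM for control and 50.4 ± 9.87 CPM for isolated libraries (SD, n = 3). The antisense gene Gm14285 covers 7.74% of its exon bases, and reads of the pair could not be told apart where strand was not used in counting.

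Adra1b, on chromosome 11 from 43774605 to 43901250 on the minus strand (Entrez gene 11548), had the same shape at 37.2, 19.9 and 41.4 CPM in the control and 45.5, 44.1 and 36.6 CPM in the isolated libraries. Control 2 again stood alone at the bottom, and isolated 3 came next but was almost level with control 1. The means were 32.9 ± 11.4 and 42.1 ± 4.79 CPM (SD, n = 3). The ratio of Adra1d to Adra1b in FPKM stayed between 1.49 and 1.86 across the 6 libraries, while Adra1d itself varied 2.49-fold and Adra1b 2.28-fold in CPM.

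Adra1a, on chromosome 14 from 66635251 to 66771240 on the plus strand (Entrez gene 11549), was the scarcest alpha1 gene. It stood at 12.6, 9.26 and 13 CPM in the control and 14.7, 14 and 9.75 CPM in the isolated libraries. The lowest libraries were once more control 2 and isolated 3, here close to each other, and the means were 11.6 ± 2.06 and 12.8 ± 2.68 CPM (SD, n = 3). The tables list 4 transcripts for Adra1a, and the deposited gene length, which shifts with the mix of transcripts, was 4099 bases in isolated 3 against 3786 to 3900 bases elsewhere. It was nearly constant for Adra1b (3222 to 3225 bases over 3 transcripts).

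Of the alpha2 class, Adra2c lies on chromosome 5 from 35278566 to 35281763 on the plus strand (Entrez gene 11553). It was measured at 18.2, 32.1 and 13.8 CPM in control 1, 2 and 3 and at 16, 16.2 and 22.6 CPM in isolated 1, 2 and 3. Control 2 was the highest library and isolated 3 the next, the reverse of the alpha1 genes, and the groups overlapped. The means were 21.4 ± 9.57 CPM for control and 18.2 ± 3.77 CPM for isolated libraries (SD, n = 3).

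Adra2a, on chromosome 19 from 54045259 to 54048982 on the plus strand (Entrez gene 11551), varied 1.41-fold in CPM, about as little as Adrb1 (1.43-fold). In FPKM Adra2a varied 1.44-fold and Adrb1 1.41-fold. Adra2a was measured at 17.2, 20.5 and 15.1 CPM in the control and 15.7, 16.3 and 21.3 CPM in the isolated libraries. Isolated 3 and control 2 were the highest and control 3 the lowest. The means were 17.6 ± 2.73 and 17.8 ± 3.07 CPM (SD, n = 3).

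Adra2b, on chromosome 2 from 127363179 to 127367221 on the plus strand (Entrez gene 11552), was removed by the filter on low counts. Without that filter edgeR gave it a log2 difference of -0.16 (unadjusted p = 0.778, edgeR adjusted p = 0.999). Its expected counts were 6.9, 19.1 and 4.73 in the control and 8.98, 5.97 and 13.1 in the isolated libraries. Even at this depth control 2 and isolated 3 held the most reads. Counting alone gives a coefficient of variation of 31.3% in control and 32.7% in isolated libraries, against 73.2% and 36.5% observed.

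The 3 alpha2 genes were highest in the same pair of libraries, though for Adra2b on few expected counts (13.1 in isolated 3 beside 8.98 in isolated 1). The 250 bases before the RefSeq start of each are shown (GRCm38.p6, read 5′ to 3′ on the gene's strand). Whether these bases bear on the library pattern was not tested. Capitals mark matches, on either strand, to GGGCGG (the GC box) or TATAAA (the TATA box). The cAMP response element TGACGTCA was searched as well and matched none of the 3.
Adra2a, chr19:54045009-54045258: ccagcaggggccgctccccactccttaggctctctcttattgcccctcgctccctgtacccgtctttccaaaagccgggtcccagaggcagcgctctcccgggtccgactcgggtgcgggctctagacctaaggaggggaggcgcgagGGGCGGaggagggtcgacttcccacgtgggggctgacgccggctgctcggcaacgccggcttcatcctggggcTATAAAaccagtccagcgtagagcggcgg
Adra2b, chr2:127362929-127363178: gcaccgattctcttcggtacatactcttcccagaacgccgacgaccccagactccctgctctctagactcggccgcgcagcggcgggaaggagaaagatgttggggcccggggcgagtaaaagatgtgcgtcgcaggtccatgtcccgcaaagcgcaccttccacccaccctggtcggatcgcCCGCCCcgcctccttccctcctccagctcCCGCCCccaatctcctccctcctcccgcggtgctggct
Adra2c, chr5:35278316-35278565: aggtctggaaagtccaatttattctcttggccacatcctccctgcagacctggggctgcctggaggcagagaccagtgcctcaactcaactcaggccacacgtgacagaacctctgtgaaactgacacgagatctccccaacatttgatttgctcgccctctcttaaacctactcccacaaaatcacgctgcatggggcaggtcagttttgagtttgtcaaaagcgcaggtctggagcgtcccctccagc
The stretches differ. Adra2a held 1 GC box, 1 TATA box and 22 CpG pairs, Adra2b held 2 GC boxes and 23 CpG pairs, and Adra2c held none of the motifs and 6 CpG pairs. Over 32851 stretches of this length before RefSeq starts, 32.7% held a GC box, 12.4% a TATA box and 1.55% the cAMP response element, and the median was 6 CpG pairs. These are matches of letters and not mapped binding sites. For Adra2b the 30 bases after the start were held by 0 GENCODE transcripts of the gene, so its start is less sure. No motif searched was found before all 3 genes.

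Adrb1, the beta1 receptor gene on chromosome 19 from 56722117 to 56725150 on the plus strand (Entrez gene 11554), varied 1.43-fold in CPM. It was measured at 36.2, 26.1 and 29.4 CPM in control 1, 2 and 3 and at 30.3, 28.2 and 25.4 CPM in isolated 1, 2 and 3. Control 1 stood highest, and the lowest were isolated 3 and control 2, the pair that was also lowest for the alpha1 genes. The means were 30.6 ± 5.14 CPM for control and 28 ± 2.45 CPM for isolated libraries (SD, n = 3).

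No member passed the test of isolated against control libraries. With edgeR's quasi-likelihood test 0 of the 6 tested members had an adjusted p under 0.05 (Benjamini-Hochberg over 15169 genes), as did 0% of all tested genes. At an unadjusted p under 0.05 there were 0 members, against 3.53% of all tested genes, and DESeq2 and limma-voom also called 0 members at an adjusted p under 0.05, where DESeq2 called 0.00659% of all genes and limma-voom 0%. The CPM of the groups overlapped for all 7, whereas the groups were apart for 8.85% of the tested genes. Of the 6 differences 4 were above 0, as were 49.2% of those of all tested genes. Their median on the log2 scale was 0.08, beside -0.0018 for all tested genes.

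The largest difference was that of Adra1b, at 0.36 on the log2 scale (SE 0.24, 95% interval -0.21 to 0.92, edgeR adjusted p = 0.999). Adra1d followed at 0.26 (SE 0.29, interval -0.42 to 0.93) and Adra1a at 0.14 (SE 0.19, interval -0.30 to 0.57). Adra2c had a log2 difference of -0.23 (SE 0.30, interval -0.92 to 0.47), Adrb1 of -0.13 (SE 0.13, interval -0.43 to 0.17) and Adra2a of 0.02 (SE 0.15, interval -0.34 to 0.37). Every one of these had the same adjusted p of 0.999. The intervals, which rest on the variation among libraries, leave room for group differences up to 1.9-fold for Adra1b and 1.91-fold for Adra1d. For Adra2c they reach down to 0.527-fold. They are narrowest for Adrb1, from 0.744-fold to 1.12-fold, and for Adra2a, from 0.791-fold to 1.29-fold.

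The values rested on single libraries. Without control 2 the log2 difference was 0.10 for Adra1b, -0.02 for Adra1d, 0.0003 for Adra1a and 0.19 for Adra2c. Without control 1 that of Adrb1 was 0.01. The spread between control libraries was wide beside counting error: the coefficient of variation of Adra1d was 39.7% where counting gives 3.6%, and that of Adra2c 44.7% where counting gives 5.05%. In isolated libraries these were 19.6% and 20.7%.

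**Figure D2:**
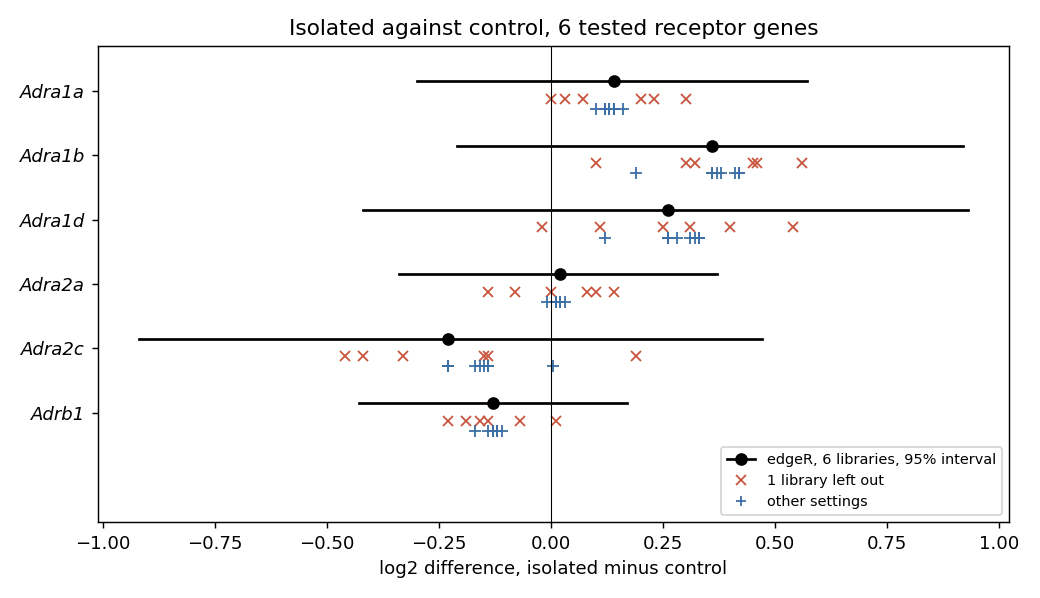
Log2 difference of isolated minus control for the 6 tested receptor genes, with the edgeR estimate and its 95% interval in black, the 6 values with 1 library left out as red crosses and the 9 other settings as blue plus signs. Every interval includes 0, and the crosses of Adra1d, Adra2a, Adra2c and Adrb1 fall on both sides of it.

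The balance between classes shifted from library to library, and the group means of the alpha1 and alpha2 shares differed by less than the SD of the controls. The summed FPKM of the 7 genes was 58.5, 45.1 and 59.6 in control 1, 2 and 3 and 63.7, 59.5 and 54.1 in isolated 1, 2 and 3. Of it the alpha1 class held 57.7%, 41.7% and 66.6% in the control and 66.8%, 65.2% and 57.1% in the isolated libraries. The means were 55.3% ± 12.6 and 63% ± 5.22 (SD, n = 3), and without control 2 their difference of 7.73 percentage points was 0.909.

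The alpha2 class held 34.9% in control 2 and 23.8% in isolated 3, and between 13.8% and 17.5% in the other 4 libraries. Its means were 22% ± 11.3 in control and 17.9% ± 5.15 in isolated libraries (SD, n = 3). FPKM of the alpha1 class thus stood at 1.2 times that of the alpha2 class in control 2 and at 4.83 times in control 3. Adrb1 held 24.9%, 23.5% and 19.7% in the control and 18.9%, 19.1% and 19.1% in the isolated libraries. Its share was below that of every control in each isolated library, with means of 22.7% ± 2.69 and 19% ± 0.102 (SD, n = 3). The nearest values were close, at 19.7% in control 3 and 19.1% in isolated 2 and 3. For the alpha1 and alpha2 shares the groups overlapped, and by CPM they were apart for 8.85% of all tested genes. The Adrb1 share also moves with the levels of the other 6 genes, and the CPM of Adrb1 itself overlapped between the groups.

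**Figure D3:**
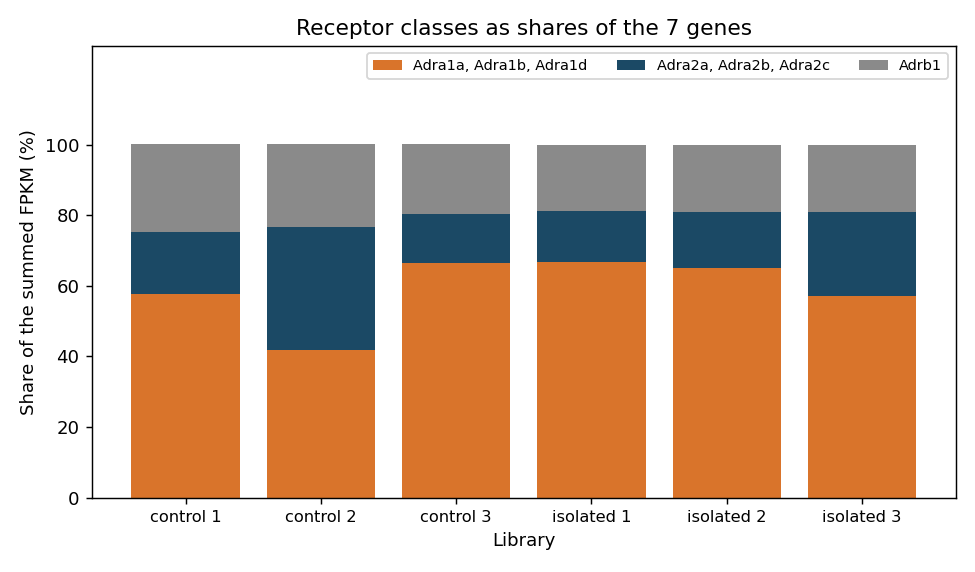
Share of the summed FPKM of the 7 receptor genes held by each class in each library, in percent. The alpha2 share is largest in control 2 (34.9%) and isolated 3 (23.8%) and lies between 13.8% and 17.5% in the other libraries.

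In each group the library with the most striatal marker RNA held the least alpha1 and the most alpha2 RNA. From the highest to the lowest, Adra2c ran through control 2, isolated 3, control 1, isolated 2, isolated 1 and control 3, and the summed striatal markers gave the same order but for isolated 1 and isolated 2, which were almost level. In CPM all 3 alpha1 genes were lowest in control 2 or isolated 3. These libraries held the most striatal marker RNA and the least excitatory cortical marker RNA. For Adra1b, however, isolated 3 (36.6 CPM) was almost level with control 1 (37.2 CPM), which held far less striatal marker RNA than isolated 3. In bulk tissue, fewer cells of a type and less RNA per cell cannot be told apart. The part of either marker level in the receptor values was not tested.

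Over the 6 libraries, 11 of the 12 striatal markers had a Pearson r above 0.9 with Adra2c and 11 with Adra2a in log2 CPM, where 3.72% and 3.41% of 14266 genes did. The median r of the 12 markers was 0.96 with each of these 2 genes. It was -0.90 with Adra1a, -0.79 with Adra1b, -0.89 with Adra1d and -0.42 with Adrb1. All 12 markers were highest in control 2 and isolated 3, so their coefficients are not separate observations. The coefficients describe 6 libraries, which differ widely in striatal level, and carry no test.

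With the striatal level as a covariate in edgeR, no member passed either. Adra1b then had a log2 difference of 0.37 with an unadjusted p of 0.0209 and an adjusted p of 0.787 by edgeR, where 6.02% of all genes had an unadjusted p under 0.05. Adra1d had 0.28 (unadjusted p = 0.0514, edgeR adjusted p = 0.827), Adra2c -0.14, Adrb1 -0.14, Adra1a 0.12 and Adra2a 0.03. Without control 2 and isolated 3, which leaves 2 libraries a group, Adra1b had a log2 difference of 0.19, Adra1d of 0.12 and Adra2c of 0.003.

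**Figure D4:**
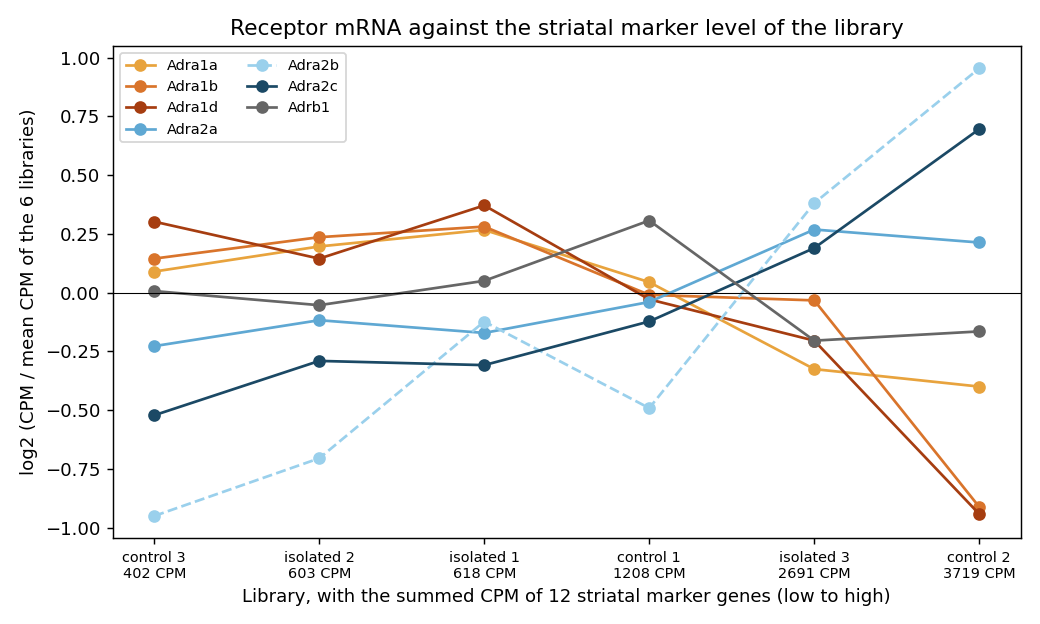
Log2 of the CPM of each receptor gene over its mean in the 6 libraries, with libraries ordered by the summed CPM of 12 striatal marker genes (402 to 3719 CPM). The 3 alpha2 genes in blue are highest in the last pair of libraries, isolated 3 and control 2, where the 3 alpha1 genes in orange and brown are lowest. Adra2b, dashed, rests on at most 19.1 counts.

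The genes with the library pattern most like each member were taken by Pearson r over the 6 libraries among 14266 other tested genes with a mean of at least 1 CPM. For Adra2a they were Sp9 (r = 0.999), a transcription factor gene, Abhd11os (0.995) and the cell polarity gene Pard3 (0.995). For Adra2c they were 1700037H04Rik (0.998), the ectonucleotidase gene Entpd3 (0.997) and the kinase gene Dclk3 (0.997). For Adra1b they were Tmem62 (0.997), Otud7a (0.996) and the clock gene Per3 (0.994), and for Adra1d Smim43 (0.997), the transcription factor gene Npas1 (0.995) and Sez6l (0.995). For Adra1a they were Plekhg5 (0.992), Mei1 (0.988) and Cemip (0.987), and for Adrb1 Frmd6 (0.994), Fsd1 (0.988) and Cys1 (0.987). Between 1 and 12 genes had an r above 0.99 with a given member. Between members, r was 0.97 for Adra1b with Adra1d, 0.89 for Adra2a with Adra2c and -0.97 for Adra1d with Adra2c. Of the 14266 genes, 3.58% had an r above 0.9 with Adra1d and 3.67% an r below -0.9 with Adra2c. With 6 libraries such values do not show a link particular to the genes named.

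The partners of the receptors were measured as well, in 7 lists of 61 symbols that name 59 genes in the tables, of which 55 were tested. With edgeR 0 rose and 0 fell at an adjusted p under 0.05. At an unadjusted p under 0.05 there was 1 of 55, beside 3.53% of all tested genes. It was Rgs4, which encodes a protein that shortens Gi and Gq signals. The groups did not overlap for 2 of 55, or 3.64%, beside 8.85% of all tested genes. Of the 55 log2 differences 24 were above 0 and 31 below, with a median of -0.01.

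Rgs4 was measured at 573, 665 and 590 CPM in the control and 558, 478 and 515 CPM in the isolated libraries. All 3 isolated libraries lay below all 3 controls, with a log2 difference of -0.24 (SE 0.08, interval -0.43 to -0.05, unadjusted p = 0.0214, edgeR adjusted p = 0.999). Its unadjusted p with edgeR was 0.0653 with the replicate block, 0.0582 without control 2, 0.0873 without isolated 2 and 0.0695 without control 2 and isolated 3. The arrestin genes, whose proteins uncouple receptors from G proteins, had log2 differences of -0.03 for Arrb1 (486 ± 13.8 and 476 ± 10.3 CPM) and 0.15 for Arrb2 (33 ± 0.955 and 36.7 ± 3.21 CPM; SD, n = 3).

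Of 11 genes for making, packing, taking up and breaking down noradrenaline, 8 were tested. The amine-degrading oxidase Maoa stood at 42.1 ± 0.383 CPM for control and 39.7 ± 1.74 CPM for isolated libraries (SD, n = 3). This was the other gene whose groups were apart, with a log2 difference of -0.09 (SE 0.06, edgeR adjusted p = 0.999). Maob was at 20.7 ± 2.23 and 19.9 ± 0.987 CPM (SD, n = 3). The low-affinity transporter Slc22a3, at 3.78 ± 2.65 and 2.63 ± 1.83 CPM, was highest in control 2 (6.75 CPM) and isolated 3 (4.74 CPM).

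Among the G protein subunits, 9 of 10 genes were tested, and 0 had an adjusted p under 0.05 with edgeR. Gnas, which encodes the Gs subunit, was at 1322 ± 126 CPM for control and 1298 ± 75 CPM for isolated libraries. The Gi and Go genes Gnai1 (213 ± 22.5 and 219 ± 15.6 CPM) and Gnao1 (820 ± 66.8 and 782 ± 22.3 CPM) and the Gq gene Gnaq (258 ± 20.8 and 260 ± 22.5 CPM) had log2 differences of 0.04, -0.07 and 0.01 (SD, n = 3). Of the 8 adenylyl cyclase genes, Adcy5 was highest in control 2 (575 CPM) and isolated 3 (450 CPM), like Adra2c, and lay between 146 and 231 CPM in the other libraries.

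Of the HCN channels, which alpha2 receptors close by lowering cyclic AMP, Hcn2 stood at 156 ± 15.8 and 157 ± 16.9 CPM (SD, n = 3). Its log2 difference was 0.01 (interval -0.22 to 0.24), and those of the 4 HCN genes lay between -0.50 and 0.14. The 6 protein kinase A genes had log2 differences between -0.06 and 0.03. The 9 genes of phospholipase C beta and protein kinase C lay between -0.14 and 0.60. The upper end was Prkcd, at 24 CPM in isolated 3 and at 6.4 to 10.6 CPM in the other 5 libraries. Without isolated 3 its log2 difference was -0.34. It was singled out after its values were seen.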

How the data were processed

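Bulk RNA of the medial prefrontal cortex was sequenced as 50-base reads (per the labels) in 3 control and 3 isolated libraries. For each library the authors deposited expected counts, which are not normalized, FPKM values, which they had scaled for gene length and library size, and gene lengths (per the file headers). The submitters' processing notes name HISAT, Bowtie2, RSEM and the mm10 build but no version or setting. No source used here says whether strand entered the counting. The table of the whole series was not used, because its 6 columns carry codes that match no sample label.

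Tables were joined on gene identifiers, and 19899 of 19943 matched RefSeq of GRCm38.p6, which gave symbols and coordinates. Exon overlaps came from GENCODE on the same build. The 1 entry per table without a symbol held at most 0.000947% of counts and was left out. Every pair of libraries differed beyond counting noise (chi-square of at least 2.89 per gene). Expected counts were rounded and fitted in edgeR 4.0.16 under R 4.3.3 with filterByExpr (minimum count 10, minimum total 15), which kept 15169 genes. TMM factors (0.9909 to 1.012) scaled the counts to CPM. The quasi-likelihood F-test had no covariates, and p-values were adjusted by the Benjamini-Hochberg method at a threshold of 0.05. Log2 differences are isolated minus control, whose standard errors were derived from the F statistic and whose 95% intervals use the t distribution. Log2 CPM for correlations used a prior count of 2. Functions for the tests were tested on simulated data.

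Alternatives were DESeq2 1.42.0, limma-voom and limma 3.58.1 on log2(FPKM + 1) and log2(FPKM + 0.1), RLE scaling, no filter, a replicate block, the mean log2 CPM of 12 striatal markers as a covariate, and fits without libraries. Libraries with equal replicate numbers did not deviate together, which does not exclude a pairing. Receptor genes and lists were chosen with earlier results of these data known. Genes named were all members, the 3 most alike to each tested member, pathway genes set by name (some of which are not reported here), pathway genes at an unadjusted p under 0.05, Drd2 and Ppp1r1b. Th, Dbh, Prkcd and the astrocyte and endothelial markers were named after their values were seen.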

Additional observations from a re-analysis of the deposited data

How the results depend on the processing

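No member passed under any of the 15 alternatives, where the lowest edgeR, DESeq2 or limma adjusted p of a member was 0.787. Of 90 values of the 6 tested members 82 kept their direction and 8 did not. Adra2b, at -0.16 as a ratio of means, was above 0 in 3 of 8 alternatives (0.32 without control 2 and isolated 3, 0.62 without control 2 and 0.07 without isolated 2). Over all genes DESeq2 called 1 gene where edgeR called 0, with 306 genes at an unadjusted p under 0.05 by DESeq2 and 535 by edgeR. Leaving out 1 library gave log2 differences from 0.0003 to 0.30 for Adra1a, 0.10 to 0.56 for Adra1b, -0.02 to 0.54 for Adra1d, -0.14 to 0.14 for Adra2a, -0.46 to 0.19 for Adra2c, -0.23 to 0.01 for Adrb1 and, as ratios of means with no test, -0.49 to 0.62 for Adra2b. Adra2a was at -0.01 and Adra2c at 0.003 without control 2 and isolated 3. Among partners the same leave-out ranges were -1.26 to 0.20 for Slc22a3, -0.14 to 0.01 for Maob, -0.10 to 0.04 for Gnas, -0.11 to 0.003 for Gnao1, -0.03 to 0.12 for Gnai1, -0.04 to 0.08 for Gnaq, -0.96 to 0.46 for Adcy5, -0.08 to 0.10 for Hcn2 and -0.34 to 0.91 for Prkcd. Without control 2 and isolated 3 Maob was at 0.01, Hcn2 at -0.10 and Prkcd at -0.11, and Gnas was at 0.01 with limma on log2(FPKM + 1) and on log2(FPKM + 0.1). The causes of these reversals were not tested beyond the libraries removed. The difference in alpha1 share ran from 0.909 to 13.4 percentage points. The level order held for all 7 genes on CPM per kilobase.

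With the replicate number as a block, edgeR called 0 members and 0 genes. Adra1b then had a log2 difference of 0.41, Adra1d 0.32, Adra1a 0.13, Adra2a 0.01, Adra2c -0.17 and Adrb1 -0.12. Libraries with equal numbers did not deviate together, at correlations of 0.03, -0.27 and -0.49 across genes. These were taken after centring each group on the mean of its few libraries, so they do not exclude a pairing. The partner genes at an unadjusted p under 0.05 numbered from 0 to 3 over the alternatives, against 1 in the fit of all 6 libraries. Depth limits Adra2b, whose counts are few.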
